A study of Mus musculus with 4 samples.

Results

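The Siglec family was followed through 9 mouse genes chosen by their symbols: Siglec15, Siglec1, Cd22, Mag, Cd33, Siglece, Siglecf, Siglecg and Siglech. All 9 were found among the 36464 Ensembl gene IDs measured in each library, and 8 had at least 1 read in some library. RNA was sequenced from CD8+ T cells enriched from percutaneous tumour grafts of male wild-type C57BL/6 mice. One group received control IgG and the other an antibody against SIGLEC15, both by intraperitoneal injection for 2 weeks, with 6 mice each and collection on day 19. Each library came from a mixture of 3 cell pellets, which left 2 libraries per treatment, so an SD describes the spread between pools. They are called IgG pools 1 and 2 and antibody pools 1 and 2 by the replicate numbers of their labels, and 4 values in a row stand in that order (library order). The line of the graft and the age of the mice are not given in the labels.

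Siglecs are cell surface lectins of the immunoglobulin superfamily that bind sialic acids, the sugars that cap the glycans of most mammalian cells. Most of them carry tyrosine motifs (ITIMs) in their cytoplasmic tails that recruit the phosphatases SHP-1 and SHP-2 and dampen activation of the cell. SIGLEC15 and Siglec-H instead pair through their membrane segment with the adaptor DAP12, and Siglec-1 (sialoadhesin) acts as an adhesion receptor of macrophages. The family is spread over leukocyte types: CD22 and Siglec-G on B cells, Siglec-E and CD33 on neutrophils and other myeloid cells, Siglec-F on eosinophils, Siglec-H on plasmacytoid dendritic cells and the myelin-associated glycoprotein (Mag) on myelin-forming glia.

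Levels are RPKM, reads per kilobase of exon scaled to the counted reads of the library, which allows levels of different genes to be compared. The number of reads behind each value was recovered from the values themselves, and intervals are exact 95% Poisson intervals of these reads, which cover counting error only. The libraries held between 14854802 and 16026197 counted reads. All 14 genes of a T cell marker list passed the filter on low values (at least 1 RPKM in at least 2 libraries), and their summed level was 730, 2106, 1855 and 1952 RPKM in library order. Markers of other cells were present too: 8 of 9 hepatocyte and hepatoma genes and 8 of 12 neutrophil genes passed the filter. IgG pool 1 stood apart, with the lowest level of each of the 14 T cell genes and the highest summed level of the hepatocyte list (5879 RPKM, against 1190 to 2514 RPKM in the other libraries).

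The Siglec transcripts were sparse in these CD8-enriched cells and had several library orders. Cd33 and Siglece followed the myeloid transcripts of each library, while Siglecf did not. Of the 9 genes, 2 passed the filter (Cd33 and Siglece), where 39.8% of all genes with a value above 0 in any library passed. Summed over the family, the level was 5.59, 2.18, 3.04 and 4.01 RPKM in library order. The 2 anti-SIGLEC15 libraries thus lay between the IgG libraries. Lyz2, the lysozyme gene of neutrophils and macrophages, measured 1.46, 0.742, 0.891 and 1.05 times the family sum in the same order, and Cd8a, the T cell reference, measured 20.6, 161, 95.3 and 78.7 times the sum.

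**Figure D1:**
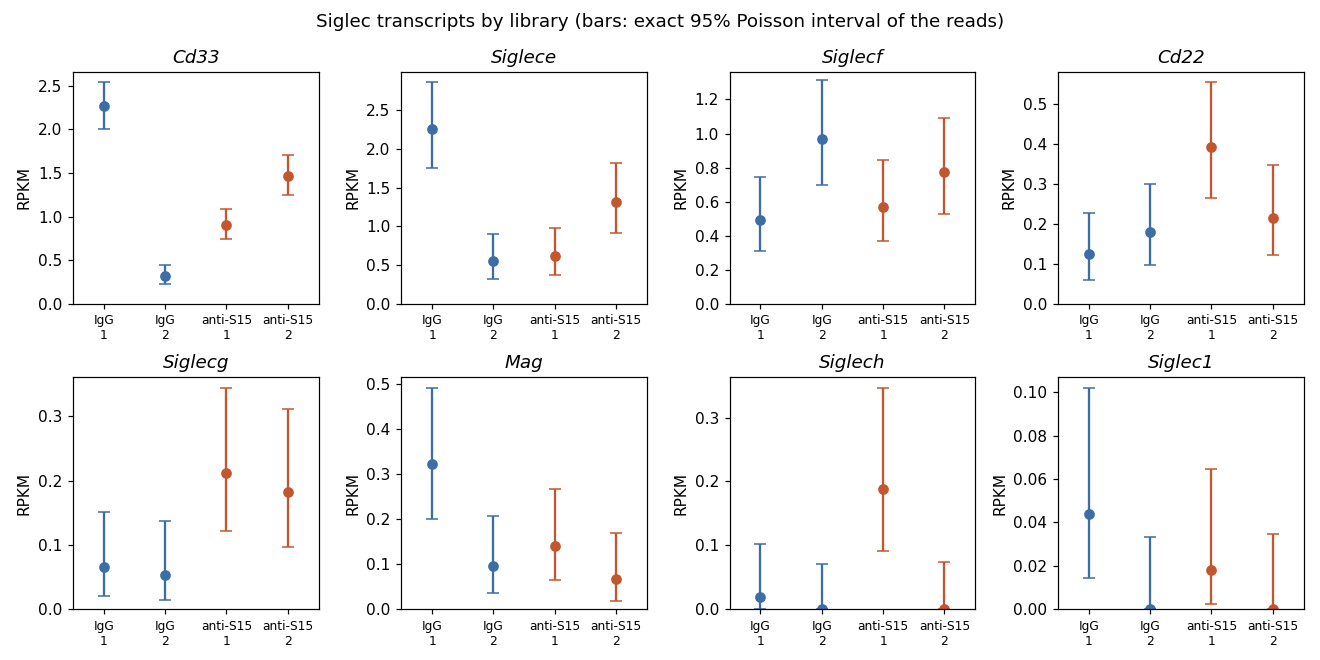
RPKM of the 8 Siglec genes with at least 1 read, by library (blue, IgG; orange, anti-SIGLEC15, written anti-S15), with exact 95% Poisson intervals of the reads as bars; each panel has its own linear axis from 0. Cd33 and Siglece are highest in IgG pool 1, Siglecf is highest in IgG pool 2, and Siglech has 10 reads in antibody pool 1 and at most 1 elsewhere.

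Cd33 and Siglece lie in the cluster of CD33-related Siglec genes on chromosome 7, which also holds Siglecf and Siglecg. Their promoters, with that of Siglecf for contrast, are shown because the first 2 genes moved together across libraries and the third did not. Each line gives the 250 bases before the RefSeq transcription start in GRCm38.p6, in the direction of the gene, and capitals mark GAGGAA or its reverse complement TTCCTC, a sequence of the kind bound by PU.1, an Ets family transcription factor of myeloid and B cells. A RefSeq promoter was matched for 7 of the 9 genes. The windows are chr7:43533172-43533421 (minus strand) for Cd33, chr7:43660162-43660411 (minus strand) for Siglece and chr7:43351091-43351340 (plus strand) for Siglecf. Those of Siglece and Siglecf adjoin the gene spans of the annotation used for the levels. That of Cd33 lies inside its gene span, which reaches further upstream, to 43544428, and the sequence before that end is not shown.
Cd33: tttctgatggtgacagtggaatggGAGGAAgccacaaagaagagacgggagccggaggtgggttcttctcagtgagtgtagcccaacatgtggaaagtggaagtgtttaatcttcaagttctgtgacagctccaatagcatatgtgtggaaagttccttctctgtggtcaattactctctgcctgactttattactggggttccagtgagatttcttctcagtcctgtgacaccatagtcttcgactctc
Siglece: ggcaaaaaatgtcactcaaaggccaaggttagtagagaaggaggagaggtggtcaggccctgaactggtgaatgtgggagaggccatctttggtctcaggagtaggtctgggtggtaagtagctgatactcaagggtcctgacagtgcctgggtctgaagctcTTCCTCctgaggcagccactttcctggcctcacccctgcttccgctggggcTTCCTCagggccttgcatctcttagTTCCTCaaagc
Siglecf: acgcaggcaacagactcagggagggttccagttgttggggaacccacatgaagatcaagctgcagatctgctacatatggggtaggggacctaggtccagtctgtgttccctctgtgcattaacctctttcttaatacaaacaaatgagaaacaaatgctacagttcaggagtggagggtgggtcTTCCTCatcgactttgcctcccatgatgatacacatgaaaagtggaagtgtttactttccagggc
The Siglece window held 3 copies, and those of Cd33 and Siglecf held 1 each. Of 32851 promoter windows of the same length, 23.3% held at least 1 copy on either strand and 0.429% held at least 3. A match is a description of the letters, and no binding was measured here.

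Cd33 (ENSMUSG00000004609, GRCm38 chromosome 7, 43524216 to 43544428, minus strand), a sialic acid receptor of myeloid cells, had the most reads of the family. It measured 2.26 RPKM (interval 2.01 to 2.54, 282 reads) in IgG pool 1 and 0.324 RPKM (0.230 to 0.442, 39 reads) in IgG pool 2. In antibody pool 1 it measured 0.902 RPKM (0.741 to 1.09, 110 reads) and in antibody pool 2 1.46 RPKM (1.25 to 1.70, 169 reads). No interval overlapped another, so the libraries differed beyond counting error, and the widest gap, about 7-fold, lay between the IgG libraries. The treatments overlapped, at 1.29 ± 1.37 RPKM with IgG and 1.18 ± 0.398 RPKM with the antibody (SD, n = 2 each).

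Siglece (ENSMUSG00000030474, chromosome 7, 43651070 to 43660161, minus strand) encodes an inhibitory receptor of neutrophils and macrophages. It measured 2.26 RPKM (1.75 to 2.87, 67 reads) and 0.558 RPKM (0.319 to 0.906, 16 reads) in IgG pools 1 and 2. In antibody pools 1 and 2 it measured 0.620 RPKM (0.368 to 0.980, 18 reads) and 1.31 RPKM (0.918 to 1.81, 36 reads). The libraries stood in the same order as for Cd33, with IgG pool 1 highest and IgG pool 2 lowest, although the intervals of libraries next to each other in this order overlapped. IgG pool 1 lay above IgG pool 2 and antibody pool 1 beyond their intervals. The treatments overlapped again, at 1.41 ± 1.20 RPKM with IgG and 0.965 ± 0.488 RPKM with the antibody (SD, n = 2 each).

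The level of Cd33 relative to Siglece depends on the length used. The deposited value of Cd33 divides by 7771 bases, the union of all annotated exons, of which transcript Cd33-203 alone has 5728. Transcript Cd33-201 has 1962 bases, and if all reads came from it the level would be 8.97, 1.28, 3.57 and 5.80 RPKM in library order. Siglece has 1849 bases of exon. Comparisons of Cd33 between libraries do not depend on this length.

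In the fit over all genes, neither gene passed the test between treatments. At a threshold of 0.05 on the Benjamini-Hochberg adjusted p, limma on log2(RPKM + 1) called 0 of the 12484 tested genes (0%), while 1.17% had an unadjusted p under 0.05. The log2 fold change of anti-SIGLEC15 against IgG was 0.06 (SE 0.52, limma adjusted p = 1) for Cd33 and -0.22 (SE 0.48, limma adjusted p = 1) for Siglece. The mean RPKM of Cd33 lay lower with anti-SIGLEC15 while its log2 fold change lay above 0. With 2 libraries per treatment, an SE of this size leaves changes of either sign within reach, so these values do not show that the treatments had equal levels. The signs turned with the IgG library left out: 0.71 for Cd33 and 0.31 for Siglece without IgG pool 1, and -0.59 and -0.75 without IgG pool 2. Both genes also changed sign when an anti-SIGLEC15 library was left out, Cd33 at -0.13 without antibody pool 2 and Siglece at 0.04 without antibody pool 1.

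**Figure D2:**
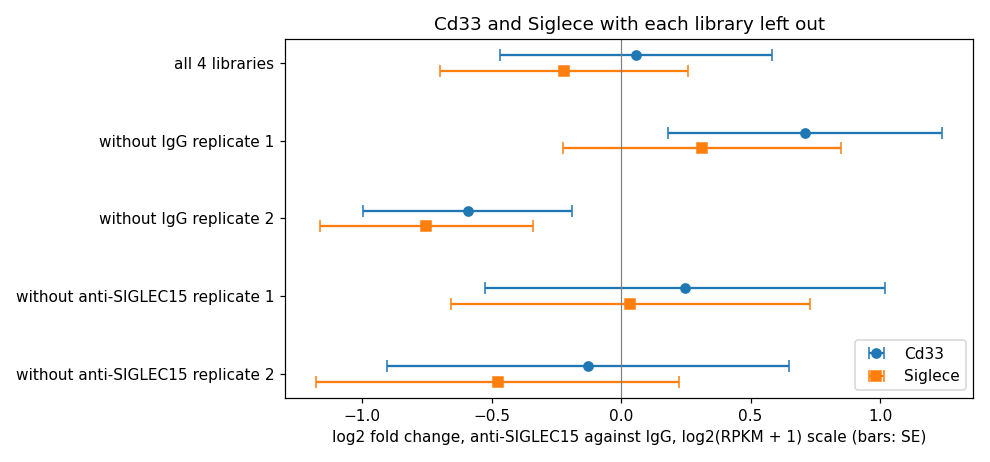
Log2 fold change of Cd33 (circles) and Siglece (squares), anti-SIGLEC15 against IgG on the log2(RPKM + 1) scale, with all 4 libraries and with each left out; bars are limma's SE. Both lie above 0 without IgG pool 1 and below 0 without IgG pool 2.

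Both genes kept a narrow ratio to Lyz2. Lyz2 measured 8.16, 1.62, 2.71 and 4.19 RPKM in library order, in the library order of Cd33. Within a library, Cd33 stood at 27.8%, 20.01%, 33.3% and 34.9% of Lyz2, so the highest library exceeded the lowest by 1.74-fold (interval 1.23 to 2.54, from the reads of Cd33 alone). Siglece stood at 27.7%, 34.5%, 22.9% and 31.2% of Lyz2, a range of 1.51-fold (0.720 to 3.13). Relative to Cd8a the same genes ranged far more widely, by 21.4-fold (15.3 to 30.7) for Cd33 and 12.4-fold (7.11 to 22.9) for Siglece. Without IgG pool 1 the ranges relative to Cd8a were 5.04-fold and 2.62-fold, and without IgG pool 2 they were 6.34-fold and 9.21-fold. Relative to Lyz2 they were 1.74-fold and 1.51-fold without IgG pool 1 and 1.26-fold and 1.37-fold without IgG pool 2. These ratios describe 4 libraries and carry no test.

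Neutrophil transcripts shared this library order. The neutrophil list had a summed level of 853, 70.05, 218 and 371 RPKM in library order. Of its 8 tested members, 6 had the library order of Cd33, where 2.08% of all tested genes had it. They included S100a9, a calcium-binding alarmin (579, 46.7, 149 and 245 RPKM), and Csf3r, the receptor for granulocyte colony-stimulating factor (33.8, 3.34, 9.80 and 22.7 RPKM). Of the macrophage list, 2 of 6 tested members had this order, Lyz2 and Cd14, which neutrophils express as well. Defining macrophage genes were near 0: Adgre1 (F4/80) lay between 0.0624 and 0.154 RPKM, and Vsig4 had 0 reads in each library. Relative to the summed neutrophil list, Cd33 stood at 0.265%, 0.462%, 0.414% and 0.395% (a 1.74-fold range) and Siglece at 0.265%, 0.796%, 0.285% and 0.353% (a 3.00-fold range). In bulk RNA, fewer cells of a type and less RNA per cell cannot be told apart, and the part of other cell types in the Siglec levels was not tested.

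**Figure D3:**
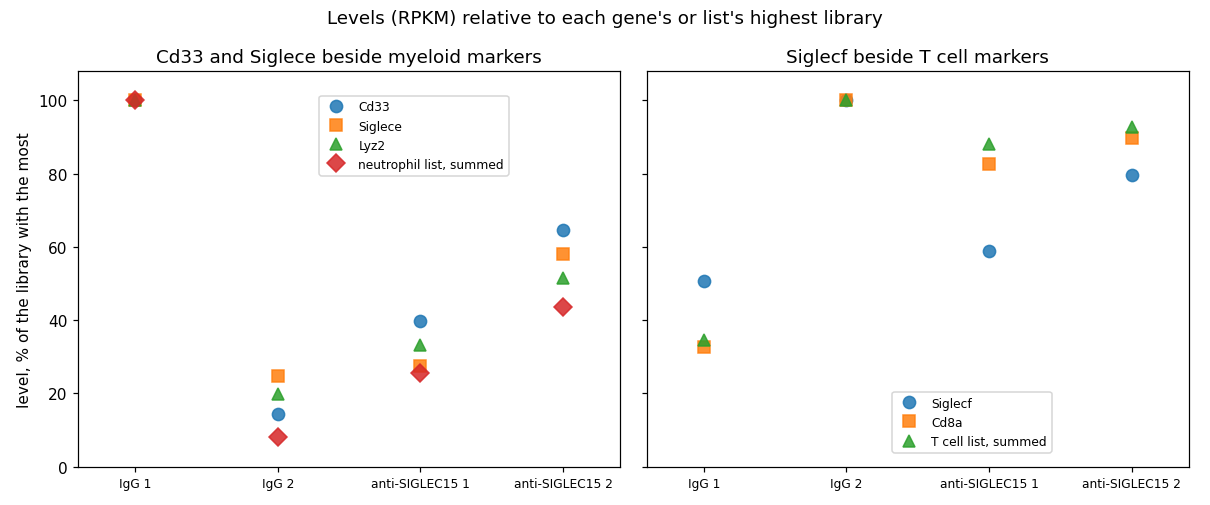
Levels as a percentage of the library with the most, for Cd33, Siglece, Lyz2 and the summed neutrophil list (left) and for Siglecf, Cd8a and the summed T cell list (right). The left set is at its maximum in IgG pool 1 and its minimum in IgG pool 2; the right set is at its maximum in IgG pool 2 and its minimum in IgG pool 1.

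Among the genes with the profile nearest to Cd33, by the root mean square difference of centred log2(RPKM + 1) values over the 4 libraries among 10256 protein-coding genes, were Tlr13 (0.06) and Pirb (0.06). Tlr13 is an endosomal sensor of bacterial RNA and Pirb an inhibitory receptor of myeloid and B cells. Siglece ranked 44 and Lyz2 ranked 92 in this comparison, and Cd8a ranked 10060. Among the nearest to Siglece were Sqstm1 (0.03), an autophagy adaptor, and the survival gene Bcl2l1 (0.06). With 4 libraries, many profiles lie this close.

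Siglecf (ENSMUSG00000039013, chromosome 7, 43351341 to 43359531, plus strand), the receptor that marks mouse eosinophils, had its highest value in IgG pool 2 and its lowest in IgG pool 1. It measured 0.492 RPKM (0.308 to 0.745, 22 reads) in IgG pool 1 and 0.970 RPKM (0.699 to 1.31, 42 reads) in IgG pool 2. It measured 0.571 RPKM (0.369 to 0.843, 25 reads) in antibody pool 1 and 0.772 RPKM (0.528 to 1.09, 32 reads) in antibody pool 2. All 4 intervals overlapped, so depth does not settle the order of the libraries. The treatments overlapped at 0.731 ± 0.338 and 0.671 ± 0.142 RPKM (SD, n = 2 each). No library reached 1 RPKM, and Siglecf did not enter the fit.

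The library order of Siglecf was that of Cd8a (115, 351, 290 and 315 RPKM), an order held by 3.63% of genes below the filter and 5.91% of tested genes. Relative to Cd8a, Siglecf stood at 0.428%, 0.276%, 0.197% and 0.245%, a range of 2.18-fold (1.17 to 4.02). Relative to Lyz2 it ranged 9.95-fold (5.81 to 17.5), from 6.03% in IgG pool 1 to 60.03% in IgG pool 2. Without IgG pool 1 these ranges were 1.40-fold (Cd8a) and 3.26-fold (Lyz2), and without IgG pool 2 they were 2.18-fold and 3.49-fold. With Cd33 taken per kilobase of all its exons, Siglecf held 44.5% of the family sum in IgG pool 2 and 8.80% in IgG pool 1. On the length of Cd33-201, Cd33 in IgG pool 2 would stand at 1.28 RPKM, above the 0.970 RPKM of Siglecf. Defining eosinophil transcripts were at or near 0: the granule genes Epx and Prg2 had 0 to 2 reads per library, the interleukin 5 receptor gene Il5ra had at most 1, and Prg3 and Ear1 had 0. The eosinophil chemokine receptor gene Ccr3 had 2, 16, 14 and 6 reads. The whole list of 9 genes summed to 0.538, 1.41, 1.19 and 1.35 RPKM, lowest in the library where Siglecf was lowest. Ear2 had the highest value of the list in each library (0.260, 0.897, 0.620 and 1.12 RPKM), from 3, 10, 7 and 12 reads. That library, IgG pool 1, was also the lowest for each of the 14 T cell genes, and a link of Siglecf to eosinophils was not tested. Siglecf shared 6 of 2915 windows of 50 bases with other transcripts, all of them also found in Siglecg, so its reads could be told from those of other Siglecs.

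**Figure D4:**
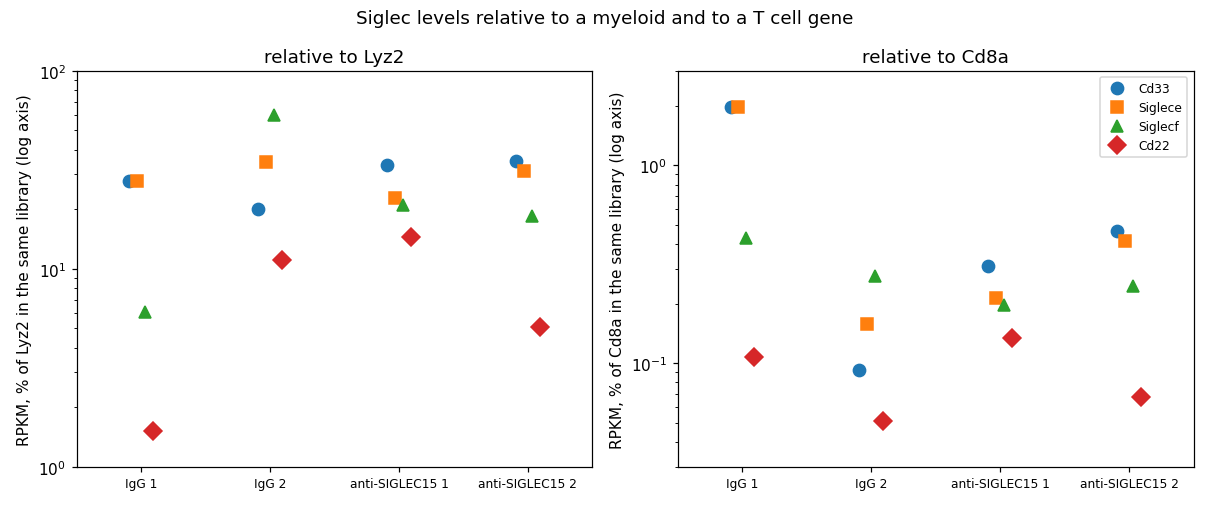
RPKM of Cd33, Siglece, Siglecf and Cd22 as a percentage of Lyz2 (left) and of Cd8a (right) in the same library, on log axes. Across libraries, Cd33 and Siglece span 1.74-fold and 1.51-fold on the left and 21.4-fold and 12.4-fold on the right; Siglecf spans 9.95-fold on the left and 2.18-fold on the right.

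The Siglecs of B cells, Cd22 and Siglecg, were the members whose treatments did not overlap, and both lay higher in both anti-SIGLEC15 libraries at very low levels. Among genes that have a value above 0 but do not pass the filter, 15.4% lay higher and 6.47% lower in both. Of the 6 Siglecs in that class, 2 lay higher and 0 lower. Cd22 (ENSMUSG00000030577, chromosome 7), an inhibitory coreceptor of the B cell antigen receptor, measured 0.124 RPKM (0.0593 to 0.228, 10 reads) and 0.179 RPKM (0.0979 to 0.300, 14 reads) with IgG. With anti-SIGLEC15 it measured 0.392 RPKM (0.266 to 0.556, 31 reads) and 0.214 RPKM (0.122 to 0.347, 16 reads). The interval of antibody pool 2 covers both IgG values, so the separation rests on antibody pool 1. Cd22 ranged 2.65-fold (1.37 to 5.39) relative to Cd8a and 9.52-fold (4.55 to 21.8) relative to Lyz2, the latter 2.84-fold without IgG pool 1. Of the exon bases of Cd22, 9.50% lie in exons of Gm29439 on the opposite strand, and without a stated strand their reads cannot be told apart.

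Siglecg (ENSMUSG00000030468, chromosome 7), an inhibitory receptor best known from B1 cells that binds CD24, had 5 and 4 reads with IgG and 16 and 13 reads with anti-SIGLEC15. These are 0.0649 RPKM (0.0211 to 0.151) and 0.0537 RPKM (0.0146 to 0.137) against 0.212 RPKM (0.121 to 0.344) and 0.182 RPKM (0.0970 to 0.311). The replicates were alike within each treatment, at 0.0593 ± 0.00796 and 0.197 ± 0.0212 RPKM (SD, n = 2 each), and the intervals of the treatments overlapped. Without a filter, limma gave a log2 fold change of 0.18 for each gene, again on log2(RPKM + 1), with an unadjusted p of 0.145 for Siglecg and 0.326 for Cd22 and an adjusted p of 0.994 for each. In limma-voom on the recovered reads, the log2 fold change was 1.63 (SE 0.70, adjusted p = 1) for Siglecg and 0.94 (SE 0.68, adjusted p = 1) for Cd22.

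Transcripts that define B cells were nearly absent. Each of the 12 genes of the B cell list lay below 1 RPKM in each library, and the list summed to 0.856, 2.38, 2.53 and 1.64 RPKM in library order. Cd79a, a signalling chain of the B cell receptor, had 3, 6, 11 and 12 reads. It was among the 4 of 12 genes that were higher in both anti-SIGLEC15 libraries, with Ms4a1 (CD20) and Fcer2a (CD23). A further 2, Cr2 and Blnk, were lower in both. Over all genes below the filter, 15.4% were higher and 6.47% lower in both. Red cell transcripts separated the treatments in the other direction from Cd22 and Siglecg: the red cell list summed to 691, 1929, 113 and 19.9 RPKM in library order. All 5 of its genes lay lower in both anti-SIGLEC15 libraries, where 6.02% of tested genes did, with a median log2 fold change of -4.42, and 0 passed the test (limma). The part of B cells and of red cells in the levels of Cd22 and Siglecg was not tested.

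Siglech (ENSMUSG00000051504, chromosome 7), a marker of plasmacytoid dendritic cells that signals through DAP12, was close to absent outside a single library. It had 1, 0, 10 and 0 reads in library order. The level in antibody pool 1 was 0.188 RPKM (0.0903 to 0.346), and 3 reads would give 0.0572 RPKM in IgG pool 2 and 0.0597 RPKM in antibody pool 2. Other sparse transcripts of these cells were highest in the same library: Ccr9, a homing receptor (1, 6, 16 and 2 reads), Spib, an Ets factor (0, 1, 7 and 3 reads), and Cox6a2 (0, 1, 6 and 0 reads). All 5 genes of the plasmacytoid list that stayed below 1 RPKM peaked there, where 30.9% of genes below the filter did. The 6 abundant members, among them Irf8 and Bst2, which other cells also express, did not peak there.

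Siglec1 (ENSMUSG00000027322, chromosome 2), the sialoadhesin of tissue macrophages, had 5 reads in IgG pool 1, 2 in antibody pool 1 and 0 in the other libraries. Its level reached 0.0437 RPKM (0.0142 to 0.102) in IgG pool 1, and 3 reads would give 0.0271 RPKM in IgG pool 2 and 0.0283 RPKM in antibody pool 2, so a difference between treatments was not detectable at this depth. The macrophage genes Adgre1, Mrc1, Fcgr1, Vsig4 and Marco were each at or below 0.154 RPKM in each library.

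Mag (ENSMUSG00000036634, chromosome 7), next to Cd22 in the genome, encodes a myelin glycoprotein that inhibits axon growth. It had 21 and 6 reads with IgG and 9 and 4 reads with anti-SIGLEC15, which gave 0.322 RPKM (0.199 to 0.492), 0.0950 RPKM (0.0349 to 0.207), 0.141 RPKM (0.0644 to 0.267) and 0.0661 RPKM (0.0180 to 0.169). The interval of IgG pool 1 did not overlap that of antibody pool 2, and all other pairs overlapped. Several other glial genes were at 0 in each library (Sox10, Mobp and Cldn11), and Mog had 3 reads in IgG pool 1 alone. Mbp, which T cells also transcribe, was the tested member of this list, at 1.44, 5.36, 5.32 and 5.48 RPKM.

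Siglec15 (ENSMUSG00000091055, chromosome 18), the target of the antibody, had 0 reads in each library, where 3 reads would give between 0.162 and 0.175 RPKM. The family members with reads therefore ranged from 7 reads over the 4 libraries for Siglec1 to 600 for Cd33. Osteoclast transcripts, which accompany Siglec15 in bone, were mixed: Dcstamp, needed for osteoclast fusion, had at most 0.0234 RPKM, while Ocstamp, also a fusion gene, ranged from 5.34 RPKM in antibody pool 2 to 50.1 RPKM in IgG pool 1. Acp5 measured 10.6, 20.8, 29.0 and 16.2 RPKM, and the other 4 of the 7 genes stayed below 1 RPKM.

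With Cd33 taken per kilobase of all its exons, the order of levels changed between libraries. On the length of Cd33-201, with the lengths of the other genes unchanged, Cd33 would be the highest of the family in each library (8.97, 1.28, 3.57 and 5.80 RPKM). On the longer length it had the highest value in each library except IgG pool 2. The places of Cd33 and its overlaps with other genes are given here on the longer length. In IgG pool 1, Cd33 and Siglece were equal within their intervals and stood above Siglecf, whose interval overlapped that of Mag, and Cd22, Siglecg, Siglec1 and Siglech followed. In IgG pool 2 Siglecf had the highest value, and its interval overlapped that of Siglece, which overlapped that of Cd33. In antibody pool 1, Cd33, Siglece and Siglecf overlapped in turn, followed by Cd22, Siglecg, Siglech and Mag. In antibody pool 2, Cd33 and Siglece overlapped each other, and Siglecf overlapped Siglece. Cd33, Siglece and Siglecf together made up between 68.8% and 89.8% of the family sum on that length.

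The partners through which Siglecs signal split into 5 genes that were lowest in IgG pool 2 and 5 that were lowest in IgG pool 1. Of the list of 10 adaptors and effectors, all 10 were tested and 0 passed, with a median log2 fold change of 0.26 against 0.02 over all tested genes. Tyrobp, which encodes DAP12, the partner of SIGLEC15 and Siglec-H, measured 58.2, 5.32, 18.7 and 41.3 RPKM in library order. Fcer1g, Syk and Lyn, an adaptor and 2 kinases of myeloid and B cell receptors, had the same library order, so 4 of 10 members shared that of Cd33 (2.08% of tested genes).

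The remaining members included the phosphatases. Ptpn6, which encodes SHP-1, measured 24.1, 51.8, 53.1 and 52.1 RPKM and was lowest in IgG pool 1, as were Ptpn11 (SHP-2), Inpp5d (SHIP-1), Hcst (DAP10) and Cbl. Ptpn6 and Inpp5d lay higher in both anti-SIGLEC15 libraries, 2 of 10 members, where 12.1% of tested genes lay higher and 6.02% lower. Their log2 fold changes were 0.56 (SE 0.42) and 0.78 (SE 0.42), each with a limma adjusted p of 1. For Ptpn6 the gap between the highest IgG library and the lowest anti-SIGLEC15 library was less than 1 RPKM.

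Glycoproteins known as Siglec ligands were abundant. Cd24a, whose product is bound by Siglec-G, measured 192, 32.0, 69.6 and 64.9 RPKM, and Cd52 412, 955, 821 and 954 RPKM. Spn (CD43), Ptprc (CD45) and Selplg (PSGL-1) were lowest in IgG pool 1, as were 5 of the 7 carriers. None of the 7 had treatments that did not overlap, a separation found upward in 12.1% and downward in 6.02% of all tested genes. Of the 7, 0 passed the test (limma on all tested genes, median log2 fold change 0.51). Among 12 enzymes and transporters of sialic acid, 0 passed (median -0.04). In this list, 1 of 12 members separated upward and 0 downward, to be read against the same 12.1% and 6.02%. St3gal6, a sialyltransferase, lay higher in both anti-SIGLEC15 libraries (8.37 and 8.21 RPKM against 5.47 and 4.76 RPKM), with a log2 fold change of 0.61 (SE 0.27, limma adjusted p = 1). Cmah, which makes the sialic acid form preferred by mouse CD22, measured 0.357, 1.34, 1.72 and 1.14 RPKM.

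Other inhibitory receptors and sialic acid lectins of leukocytes gave a further comparison for the Siglecs. Of 12 such genes, 6 were tested and 0 passed (median log2 fold change 0.09). Pirb (2.19, 0.389, 1.04 and 1.69 RPKM), Pilra and Sirpa, receptors of myeloid cells, had the library order of Cd33, as did Cd300a below the filter. Cd72, an inhibitory receptor of B cells and some T cells, measured 0.419, 2.41, 2.10 and 2.36 RPKM and was lowest in IgG pool 1.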

How the data were processed

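Poly(A) RNA of 4 libraries, 2 per treatment and each from 3 pooled pellets, was sequenced on a DNBSEQ-G50 platform, per the labels' protocols. The deposited files hold 1 value per gene ID and library. The unit is not named. The values behave as RPKM made by the authors: multiplied by the GENCODE M21 exon length, a value was a whole multiple of 1 step per library, within 0.02 reads for 98.92% to 98.97% of genes under 1000 reads. Per the submitters' processing notes, GRCm38 and mm10 were the genome builds. Which aligner and counter were used, and whether strand was kept, is not given in the sources used here. Symbols came from GENCODE M21 for 36386 IDs, and 78 had none.

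The reads recovered this way gave the Poisson intervals. The test was limma (trend, robust) on log2(RPKM + 1) for genes of at least 1 RPKM in at least 2 libraries. It was two-sided, with Benjamini-Hochberg adjustment over all genes. It was also run on simulated data in which the libraries of a group shared their mean levels. The IgG libraries here differed by about 7-fold for Cd33, so that run does not show how the test performs on these data. Fold changes on log2(RPKM + 1) understate changes of low genes. Nothing in the labels says how the 2 libraries of a treatment differ beyond being separate mixtures.

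The members and lists were chosen with earlier results of these data known. Named genes were the 9 members, Lyz2, Cd8a, genes of the lists and the 3 nearest profiles of each tested member. Lists covered Siglec signalling, ligand carriers, sialic acid enzymes, other lectins and receptors, and markers of T cells, macrophages, B cells, plasmacytoid dendritic cells, eosinophils, neutrophils, myelin-forming glia, osteoclasts, hepatocytes and red cells. Examples within lists were picked after their values were seen. Alternatives were a pseudocount of 0.1, no filter, a filter at 5 RPKM, median-of-ratios and T cell list scaling, limma-voom on reads (at least 10 per gene), a replicate block, each library left out, and list sums in place of Lyz2 and Cd8a. The neutrophil sum, the length of Cd33-201 and the ratios with a library left out were added after the data were seen. Fits used limma 3.58.1 in R 4.3.3. Tables were made with pandas 2.3.3 and scipy 1.17.1 in Python 3.11.15, and plots with matplotlib 3.10.9. Values of some genes are not reported here.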

Additional observations from a re-analysis of the deposited data

How the results depend on the processing

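No Siglec gene was called under any of the 12 fits run, but most of these fits tested only Cd33 and Siglece of the family. Members below the filter entered only the fit without a filter and limma-voom, and Siglec15 entered no fit. The count of called genes was 0 in the fit with all libraries and ran from 0 to 2129 with a library left out (125 without IgG pool 1, 2129 without IgG pool 2, 0 without either anti-SIGLEC15 library); the lone library of a group was then assumed to vary like the other group. With a library left out, the log2 fold change ran from -0.59 to 0.71 for Cd33 and from -0.75 to 0.31 for Siglece. Scaling to the T cell list moved the median of all genes to -0.55 and Cd33 to -0.48. In all, Cd33 kept its direction in 7 of 10 alternatives and Siglece in 8 of 10; at 5 RPKM neither gene was tested. Replicate numbers are not stated to pair libraries. Deviations of same-numbered libraries from their group means correlated at 0.33 over 12484 genes, and with the replicate block 0 genes and 0 Siglec genes were called, with 0.06 for Cd33 and -0.22 for Siglece. Against the summed macrophage list in place of Lyz2, the range over libraries was 2.59-fold for Cd33 and 5.33-fold for Siglecf. Depth limits Siglec1, Siglech, Siglecg and Mag, each with at most 40 reads over the 4 libraries. With a library left out, these ranges ran from 5.04-fold to 21.4-fold (Cd33 to Cd8a), 2.62-fold to 12.4-fold (Siglece to Cd8a), 3.26-fold to 9.95-fold (Siglecf to Lyz2) and 2.84-fold to 9.52-fold (Cd22 to Lyz2), with the lowest value without IgG pool 1 in each case.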
